A study of Sus scrofa with 12 samples.

Results

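The comparison described here set muscle taken 2 h after slaughter against muscle of the same pigs taken 20 min after slaughter. Its members were the 3 arrays labelled for 2 h and the 3 arrays labelled for 20 min, matched by pig number, which is 6 of the 12 arrays of the study, and all 23999 of 24123 probe sets that are not controls. The animals were 3 female commercial hybrid pigs of about 160 kg from a single farm, stunned with CO2 at 87% and slaughtered in the same abattoir within about a minute of each other. The tissue was a 3 to 5 g portion of the semimembranosus of the left leg, a large thigh muscle. Both groups share farm, sex, stunning and muscle, and they differ in the time since death, 20 min against 2 h, and in the time spent in the cold chain that brings the carcass towards 4 °C. Each time was a separate piece of the muscle at the same position, so a change with time and a difference between neighbouring pieces cannot be told apart. No untreated or living muscle was part of these 12 arrays, so 20 min after death is the earliest reference.

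Muscle does not stop working at slaughter. Its fibres go on splitting glycogen and ATP without oxygen, acidify, enter rigor and are later softened by their own proteases, which turns muscle into meat. The RNA that was present at death remains in the tissue while transcription and RNA decay go on for some time, and short-lived transcripts such as those of immediate early genes are the ones whose levels can move most quickly.

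The array medians of the 6 arrays lay between 5.90 and 5.92 on the log2 scale, as follows from the normalisation that gives all arrays the same distribution. Signal over background was not among the values used, and 3 pigs limit the precision. The tissue matched its label: the 10 skeletal muscle fibre markers on the array, among them the creatine kinase gene CKM and the myosin light chain genes MYL1 and MYLPF, had mean log2 levels between 13.37 and 14.50, and their median log2 change was 0.00121. Pig 1 stood apart from pigs 2 and 3 before any time effect is considered. The 36 poly-A spike probe sets, which read bacterial RNAs added during labelling, had a mean log2 signal of 9.47 (20 min) and 8.97 (2 h) in pig 1, whereas pig 2 had 6.77 and 6.32 and pig 3 had 6.99 and 5.76, so the range of pig 1 lay apart from that of the others at both times. The spikes were lower at 2 h in each pig by 0.50, 0.44 and 1.23, a mean log2 change of -0.72 ± 0.44 (SD over the 3 pigs; exact permutation p = 0.25, two-sided, the smallest value that 3 pairs allow). The 27 hybridisation spike probe sets, added after labelling, were lower too, by 0.30, 0.03 and 0.49, a mean change of -0.27 ± 0.23. The excess of 3′ over 5′ signal grows as RNA breaks down. For the EF1A control it was 0.48, 0.63 and 0.23 at 20 min and 0.56, 1.11 and 0.49 at 2 h in pigs 1, 2 and 3. It was higher at 2 h by 0.27 ± 0.21 (exact permutation p = 0.25). In 2 pairs of control sets each for actin and GAPDH, the mean change of this excess lay between -0.03 and 0.03. The excess itself was large in the first actin pair, at 2.37, 2.23 and 2.33 at 20 min and 2.15, 2.54 and 2.14 at 2 h. In every pair, EF1A included, pig 2 at 2 h had the highest value of the 6 arrays. The part of the spikes, of RNA quality and of pig 1 in the results below was not tested, and the main results are given with and without pig 1.

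**Figure D1:**
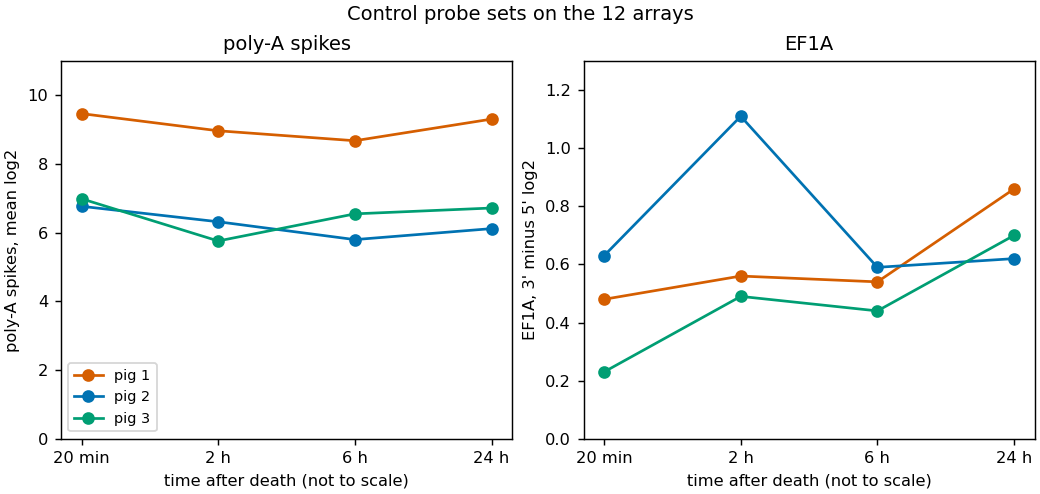
Mean log2 signal of the 36 poly-A spike probe sets (left) and the EF1A 3′ minus 5′ log2 difference (right) at each time after death, 1 line per pig; the times are evenly spaced and not to scale. The spikes of pig 1 lay between 8.68 and 9.47 at all 4 times, above every value of pigs 2 and 3, and the EF1A difference was above its 20 min value at 2 h in all 3 pigs.

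Most transcripts stood at nearly the same level at 2 h as at 20 min. The median absolute log2 change was 0.0876, the 90th percentile was 0.225 and the 99th percentile was 0.432. For 95% of probe sets the whole 95% interval stayed inside 1.5-fold in either direction, and for 99.6% it stayed inside 2-fold. In the limma model of all 12 arrays with pig as a block, 0 of 23999 probe sets (0%) passed a Benjamini-Hochberg adjusted p of 0.05, the smallest adjusted value being 0.473. An unadjusted limma p under 0.05 was reached by 1908 (7.95%), of which 962 (4.01%) had a higher and 946 (3.94%) a lower mean at 2 h. That near-even split depends on the scaling: with each array centred on its brightest 25% of probe sets it was 1119 higher and 731 lower, or 60.5% higher against 50.4%. Mean changes of at least 1.5-fold were seen in 65 probe sets (0.271%), 15 higher (0.0625%) and 50 lower (0.208%), and of these 8 higher (0.0333%) and 35 lower (0.146%) had the same sign in all 3 pigs.

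The 3 pigs did not move alike. Across probe sets, the log2 changes of pigs 2 and 3 correlated with r = 0.199, those of pigs 1 and 2 with r = -0.013 and those of pigs 1 and 3 with r = -0.048, a description over probe sets that share arrays and are not independent. The spread of the changes was smallest in pig 1 (SD 0.191 over probe sets) and largest in pig 3 (0.283), with 0.228 in pig 2. A 1.5-fold difference was seen in 211 probe sets of pig 1, 455 of pig 2 and 979 of pig 3. The same sign in all 3 pigs was found for 3322 probe sets that were higher (13.8%) and 3352 that were lower (14.0%) at 2 h. All 3 arrays of 2 h lay above all 3 of 20 min for 1007 probe sets (4.20%) and below them for 835 (3.48%).

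A mean change of 2-fold or more was reached by 5 probe sets (0.0208%), 2 of them named, SPP1 and the dimmer of the 2 probe sets of ANKRD1. The secreted phosphoprotein gene SPP1 had log2 levels of 5.23, 4.87 and 5.44 at 20 min and 5.20, 5.60 and 9.18 at 2 h in pigs 1, 2 and 3. Its mean change of 1.48 therefore came mostly from the 2 h array of pig 3, and the groups overlapped. The other 3 probe sets have no gene symbol here; the one with a lower mean stood at 3.79, 8.07 and 9.48 at 20 min and 4.46, 5.57 and 6.70 at 2 h, so pig 1 started far below the others and moved the other way.

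The genes described next are the 12 lowest and 12 highest changes among the 100 named genes with the smallest unadjusted limma p and the same sign in all 3 pigs, of which 45 were higher and 55 lower. Errors of changes are SDs over the 3 pigs, values are RMA log2 levels, and triplets are in the order pig 1, pig 2, pig 3. None of the 24 passed the adjusted threshold (limma adjusted p between 0.473 and 0.579). The 20 min and 2 h values did not overlap for 3 of the 12 lower and 6 of the 12 higher genes. Since the genes were picked for small p and equal sign, these counts describe them and support nothing. Of the 24 genes, 17 have several probe sets on the array, and 12 are named from a set that is not the brightest of its gene.

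ANKRD1, a cardiac ankyrin repeat protein that muscle makes in response to stretch and injury, stood at 5.79, 10.11 and 8.57 at 20 min and 4.53, 9.04 and 7.67 at 2 h. These values are from the dimmer of its 2 probe sets, which was lower in each pig by a similar amount, with overlapping groups and a change of -1.08 ± 0.18 (limma adjusted p = 0.579). The brighter set stood at 11.34, 13.39 and 13.02 at 20 min and 9.83, 12.82 and 12.80 at 2 h. There the pigs were not alike, with changes of -1.51, -0.57 and -0.22 and a mean of -0.77 ± 0.66 (limma adjusted p = 0.612). EGR1, an immediate early zinc finger factor, stood at 5.87, 9.33 and 8.73 at 20 min and 5.57, 8.08 and 7.57 at 2 h. Pigs 2 and 3 were lower at 2 h by more than 1 log2 unit and pig 1, which started from the lowest level, by 0.30. The change was -0.90 ± 0.53 (limma adjusted p = 0.579) for the brightest of its 3 probe sets, while another of them had 0.09.

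OCA2, a membrane protein known for its part in melanosomes, had the smallest p of all probe sets. Its levels were 7.12, 8.75 and 7.65 at 20 min and 6.55, 7.86 and 6.70 at 2 h, lower in every pig, with overlapping groups because pig 2 was high at both times. The change was -0.80 ± 0.20 (limma adjusted p = 0.473). MSTN, which encodes myostatin, the secreted brake on muscle growth, is outside the 24 genes but was as far from 0, with 5.96, 6.47 and 7.48 at 20 min and 5.78, 5.28 and 6.45 at 2 h. Its groups overlapped and its change was -0.80 ± 0.55 (limma adjusted p = 0.579). CDO1, cysteine dioxygenase, which breaks down cysteine, stood at 6.93, 5.93 and 7.46 at 20 min and 6.85, 4.59 and 6.46 at 2 h. Pig 1 hardly differed between the times and the change was -0.80 ± 0.65. GJA1, the gap junction protein connexin 43, stood at 8.18, 8.67 and 9.61 at 20 min and 7.39, 7.63 and 9.22 at 2 h, a change of -0.74 ± 0.33 with overlapping groups.

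The other 7 lower genes were each named from a probe set that is not the brightest of its gene, and their brightest sets lay closer to 0. For the set annotated as EF1ALPHA, elongation factor 1 alpha, which delivers aminoacyl-tRNA to the ribosome, levels were 7.72, 7.25 and 8.08 at 20 min and 7.18, 6.33 and 6.89 at 2 h, with no overlap. EF1ALPHA was lower by a mean change of -0.88 ± 0.33 (limma adjusted p = 0.473), but -0.17 for the brightest of its 7 sets. The growth factor TGFB2 stood at 4.82, 4.84 and 5.38 at 20 min and 4.20, 4.29 and 4.10 at 2 h, again without overlap, and its change was -0.81 ± 0.40 against -0.14. RPL24, a protein of the large ribosomal subunit, stood at 8.53, 8.16 and 8.34 at 20 min and 8.09, 7.57 and 7.51 at 2 h, a change of -0.62 ± 0.19 against -0.05. The lysosomal protease gene CTSC (-0.87 against -0.09), the Mediator subunit gene MED4 (-0.72 against -0.19), CLDND1 (-0.66 against -0.16) and the RNA-binding repressor gene PUM2 (-0.63 against -0.10) showed the same gap between probe sets. Which of the sets reads the intended transcript was not tested.

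CAV1, the coat protein of caveolae, had the highest change of the 24. Its levels were 8.73, 7.95 and 8.38 at 20 min and 9.16, 8.90 and 9.12 at 2 h, so every 2 h array lay above every 20 min array. The change was 0.71 ± 0.26 (limma adjusted p = 0.579), against 0.13 for its brightest probe set, and its mean was 9.04 at 6 h and 8.28 at 24 h. HSPB6, a small heat shock protein abundant in muscle, stood at 11.70, 11.40 and 10.62 at 20 min and 11.85, 12.37 and 11.59 at 2 h. Pigs 2 and 3 were each higher by 0.97 and pig 1 by 0.15, with overlapping groups and a change of 0.70 ± 0.48 (limma adjusted p = 0.579). Its means at 6 h and 24 h were 11.94 and 11.95, close to the mean at 2 h.

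MYL3, the myosin light chain of slow fibres, stood at 13.14, 13.00 and 12.25 at 20 min and 13.30, 13.52 and 13.18 at 2 h. All 2 h arrays lay above all 20 min arrays, by the narrowest margin between pig 1 at 20 min and pig 3 at 2 h, and the change was 0.53 ± 0.38 (limma adjusted p = 0.579). LPL, lipoprotein lipase, which frees fatty acids from circulating lipoproteins, stood at 10.57, 10.47 and 9.72 at 20 min and 10.76, 11.11 and 10.43 at 2 h. Pig 3 at 2 h remained below pigs 1 and 2 at 20 min, and the change was 0.52 ± 0.28 (limma adjusted p = 0.579). CPT1B, the muscle carnitine palmitoyltransferase that admits long-chain fatty acids to mitochondria, stood at 10.38, 10.40 and 9.71 at 20 min and 10.61, 10.88 and 10.43 at 2 h. Its groups did not overlap and its change was 0.48 ± 0.25 (limma adjusted p = 0.579).

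Of the other 7 higher genes, the groups did not overlap for LOC595122 (0.56 ± 0.09), CLIP4 (0.53 ± 0.41) and TM9SF4 (0.50 ± 0.24), and overlapped for C17H8orf4 (0.55 ± 0.39), the aldo-keto reductase family gene AKR1CL1 (0.48 ± 0.13), the 14-3-3 adaptor gene YWHAZ (0.44 ± 0.26) and GGTA1P (0.43 ± 0.22). CLIP4 stood at 7.60, 7.56 and 6.77 at 20 min and 7.69, 8.15 and 7.68 at 2 h, so pig 1 differed by 0.09 only. The brightest probe sets of TM9SF4, C17H8orf4 and GGTA1P, which are not the ones named here, had changes of 0.08, 0.24 and 0.30. YWHAZ is also a candidate reference gene for quantitative PCR, and its other probe set had a change of -0.13.

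**Figure D2:**
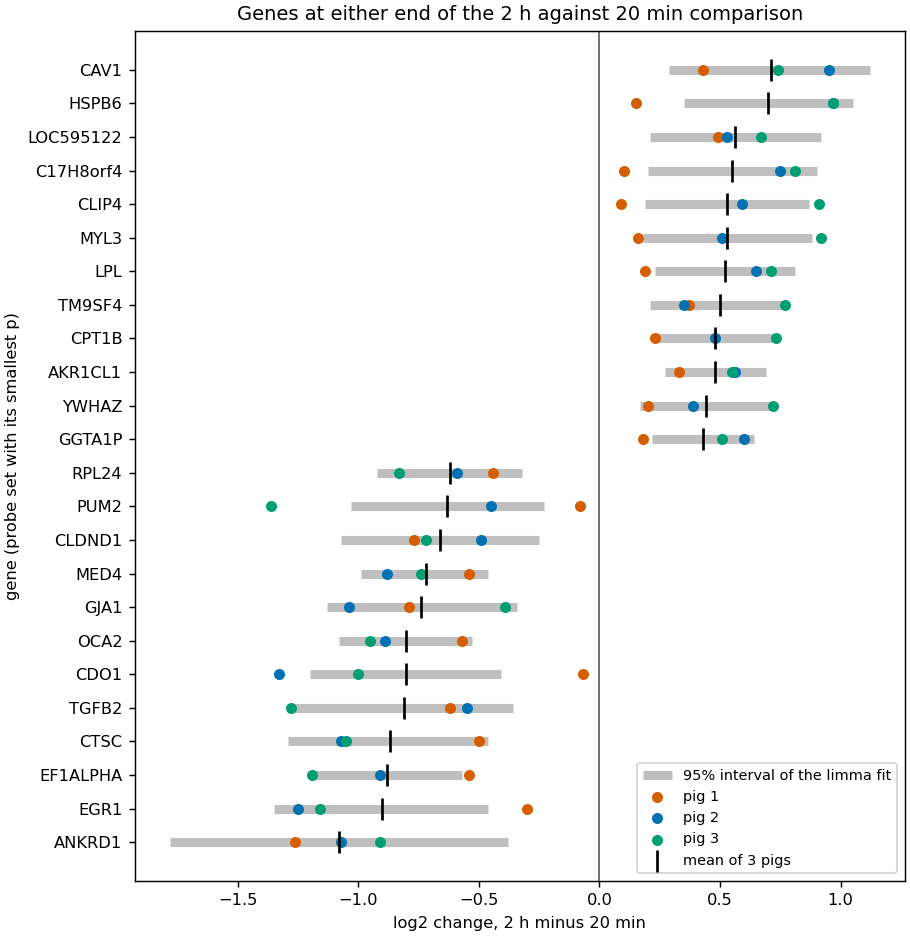
The log2 change from 20 min to 2 h of the 12 highest and 12 lowest genes among the 100 with the smallest p and equal sign in all pigs; coloured points are the 3 pigs, black ticks the mean and grey bars the 95% interval of the limma fit. The change of pig 1 was the closest to 0 for 19 of the 24 genes, and none passed the adjusted threshold.

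Across the 24 genes, pig 1 had the smallest change for 19, pig 2 for 3 and pig 3 for 2. Leaving out the 20 min array of pig 1 gave 29 probe sets past the adjusted threshold, 13 higher and 16 lower (smallest limma adjusted p = 0.0224), in place of 0. In 17 of the 29, pig 1 itself had moved in the opposite direction. Among the 16 with a symbol, 8 are in the set of 24, such as OCA2 (-0.95, adjusted p = 0.0361), HSPB6 (0.95, 0.0361), MYL3 (0.78, 0.0431) and CPT1B (0.62, 0.0446), all in the same fit without that array. The adipocyte hormone gene ADIPOQ, which stood at 4.01, 5.57 and 6.52 at 20 min and 4.23, 4.17 and 5.09 at 2 h, was also among them, and pig 1 was the pig whose level was not lower at 2 h. Leaving out pig 1 at all times gave 0 probe sets past the threshold (smallest limma adjusted p = 0.177), 2349 at unadjusted p under 0.05 and 315 with at least a 1.5-fold change. Leaving out the 2 h array of pig 2 gave 1 unnamed probe set (adjusted p = 0.0302).

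Gene groups were then read from lists of known function. Each gene was represented by its brightest probe set, and all 6765 genes with a symbol served as the background. Of these, 47.5% were higher and 52.5% lower in the mean at 2 h, 14.0% were higher and 16.8% lower in all 3 pigs, and 4.02% were higher and 4.26% lower at unadjusted limma p under 0.05. The median log2 change over all genes was -0.00764. In no list did a gene pass the adjusted threshold. The genes of a list share arrays and are not independent, so the counts describe these 6 arrays and are not tests. Within a list the 3 members with the smallest p and the brightest one follow the naming rule, and other members are named for their function after their values were seen.

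**Figure D3:**
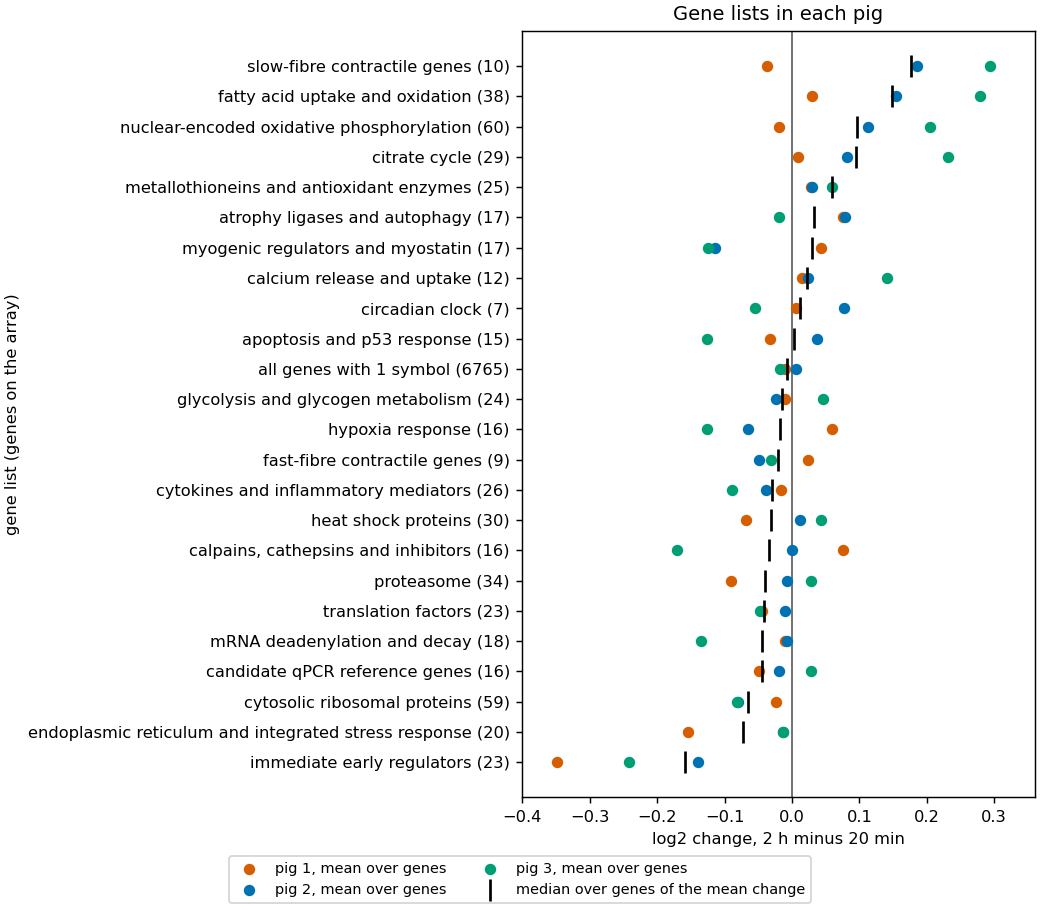
Mean log2 change from 20 min to 2 h of each gene list in each pig (coloured points) and the median over genes of the mean change (black ticks), with the number of genes on the array in parentheses. Slow-fibre, fatty acid, oxidative phosphorylation and citrate cycle lists lay highest, mainly through pigs 2 and 3, and immediate early regulators were the lowest of the lists shown in all 3 pigs; the cell type marker lists are not shown.

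Immediate early regulators, the factors that cells switch on within minutes of a stimulus without new protein synthesis, were mostly lower at 2 h. Of 23 on the array, 20 were lower in the mean, 10 were lower in all 3 pigs and 2 higher in all 3, and 6 had an unadjusted p under 0.05, all lower. The median change was -0.159, and averaged over the list it was -0.348, -0.140 and -0.242 in pigs 1, 2 and 3. Without pig 1, 15 of 23 were lower in the mean, as were 3424 of all 6765 genes, and the median was -0.172. In that fit 2 of the 23 (8.7%) were lower at unadjusted p under 0.05, against 5.26% of all genes.

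Among the subunits of AP-1, the dimeric factor of FOS, JUN and ATF proteins, 4 of 5 were lower. FOS stood at 8.78, 12.74 and 12.51 at 20 min and 7.74, 12.46 and 12.13 at 2 h, lower in every pig, with pig 1 far below the others at both times. Its change was -0.57 ± 0.42 (limma adjusted p = 0.592). ATF3, a stress-induced partner chosen here after its values were seen, stood at 9.49, 11.83 and 11.92 at 20 min and 7.95, 11.18 and 11.78 at 2 h, a change of -0.78 ± 0.71 (limma adjusted p = 0.635). JUN stood at 11.32, 12.52 and 11.80 at 20 min and 11.21, 12.38 and 11.73 at 2 h, a change of -0.11 ± 0.03 (limma adjusted p = 0.842). Of the 6 zinc finger and nuclear receptor factors, 5 were lower, led by EGR1, and KLF4 stood at 7.19, 8.70 and 8.78 at 20 min and 6.97, 8.65 and 8.01 at 2 h. The nuclear receptor genes NR4A3 and NR4A2 had changes of -0.03 and 0.05.

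Among the other early factors and the feedback inhibitors that switch the response off, 11 of 12 were lower. The stress-induced factor gene IER5 stood at 9.03, 10.33 and 10.13 at 20 min and 8.75, 10.11 and 9.56 at 2 h, a change of -0.36 ± 0.19 (limma adjusted p = 0.608) with overlapping groups. The antiproliferative gene BTG1 stood at 10.74, 11.21 and 11.10 at 20 min and 10.62, 10.84 and 10.90 at 2 h, a change of -0.23 ± 0.13 (limma adjusted p = 0.626). DUSP1, a phosphatase that turns off MAP kinases, had a change of -0.21 ± 0.02, nearly equal in the 3 pigs (limma adjusted p = 0.804), and ZFP36, which speeds the decay of cytokine mRNAs, had -0.11. DUSP6, a phosphatase specific for ERK, was the 1 gene of the group that was higher (0.20).

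The pigs differed in these genes far more than the times did. Pig 1 had the lowest level of the 3 pigs in 20 of the 23 genes at 20 min and in 19 at 2 h, against 30.4% and 33.1% of all genes. The list mean was 8.03, 9.35 and 9.14 at 20 min and 7.68, 9.21 and 8.90 at 2 h in pigs 1, 2 and 3, a range of 1.32 between pigs at 20 min. At 6 h the means were 7.81, 8.98 and 8.91 and at 24 h 7.50, 9.23 and 8.41, so pig 1 stayed lowest throughout. The matricellular gene CYR61 shows the gap between pigs, with 7.61, 10.61 and 9.38 at 20 min and 7.35, 10.89 and 8.88 at 2 h.

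**Figure D4:**
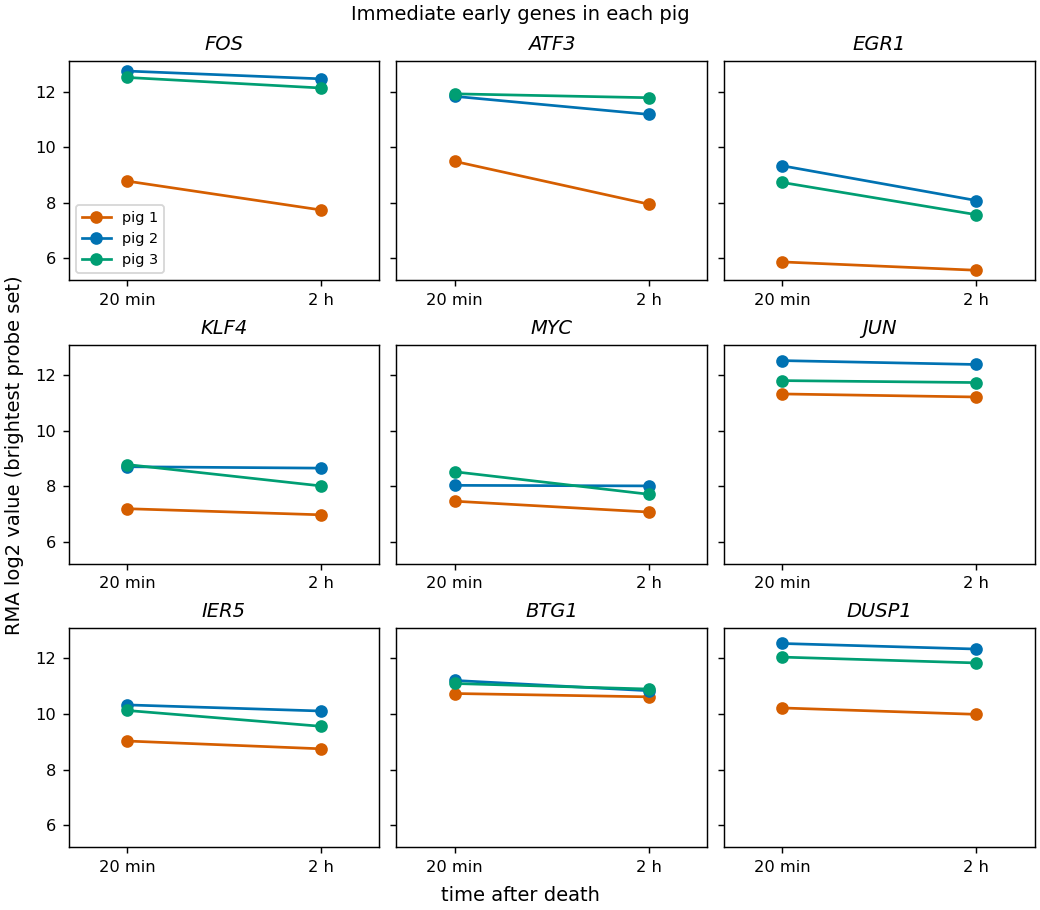
RMA log2 values of 9 immediate early genes at 20 min and 2 h, 1 line per pig, on a common scale; FOS, EGR1 and IER5 follow the naming rule and the other 6 were chosen after their values were seen. Pig 1 lay below pigs 2 and 3 for every gene shown at both times, and most lines slope down.

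Heat shock proteins, chaperones that hold or refold damaged proteins, showed no common direction. Of 30 genes, 11 were higher and 19 lower, and HSPB6 alone had an unadjusted p under 0.05. Of the 7 small heat shock proteins, HSPB7 was next to HSPB6 with a change of 0.27, while HSPB1 had -0.03 and CRYAB, the alpha-B crystallin gene, had 0.05. The other, dimmer probe set of CRYAB had -0.70. Of the 9 ATP-driven chaperones of the HSP70, HSP90 and HSP110 families, 8 were lower, by small amounts. HSPA13 stood at 7.40, 7.79 and 7.69 at 20 min and 7.02, 7.76 and 7.39 at 2 h, a change of -0.24 ± 0.18 (limma adjusted p = 0.639). The cochaperones and chaperonins were 6 higher and 8 lower.

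Genes of the endoplasmic reticulum and integrated stress responses were lower in 14 of 20 cases and lower in all 3 pigs in 7, with a median of -0.0725. Averaged over the list, the change was -0.155, -0.0128 and -0.0127 in pigs 1, 2 and 3, so it came mostly from pig 1. Without pig 1, 12 of 20 were lower and the median was -0.0368. DNAJB9, a chaperone cofactor of the reticulum, stood at 10.46, 10.63 and 10.67 at 20 min and 10.39, 10.23 and 10.42 at 2 h, with no overlap and a change of -0.24 ± 0.17 (limma adjusted p = 0.625). ASNS, asparagine synthetase, a target of the factor ATF4, stood at 9.60, 7.41 and 8.90 at 20 min and 9.58, 6.86 and 8.57 at 2 h, a change of -0.30 ± 0.26 (limma adjusted p = 0.613). ATF4 itself had -0.08, and its other, dimmer probe set had -0.39. Of 16 hypoxia genes 7 were higher and 9 lower, with a median of -0.0185, which was -0.0974 without pig 1 and 0.0137 without pig 3. Among sensors and factors, HIF1A had -0.12, the prolyl hydroxylase gene EGLN1 -0.02 and ARNT 0.14, and among targets VEGFA had -0.05 and LDHA -0.02. The target gene ANKRD37 was furthest from 0, at 6.87, 7.72 and 6.93 at 20 min and 6.80, 6.51 and 6.43 at 2 h. Its groups did not overlap, and most of its change of -0.59 ± 0.57 (limma adjusted p = 0.612) came from pig 2.

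Genes for the uptake and oxidation of fatty acids, which supply slow fibres with acetyl-CoA, were mostly higher at 2 h. Of 38 genes, 31 were higher in the mean, 19 were higher in all 3 pigs and 2 lower in all 3, and 13 had an unadjusted p under 0.05, all higher. The median change was 0.148, and averaged over the list it was 0.0291, 0.154 and 0.279 in pigs 1, 2 and 3. Without pig 1, 32 were higher in the mean and 15 had an unadjusted p under 0.05, where 5.48% of all genes did so in that direction, and without pig 3 the median was 0.0979.

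Of the 12 uptake genes and carriers, 9 were higher. LPL and CPT1B, given above, led them, and FABP3, the muscle fatty acid binding protein, stood at 13.42, 13.09 and 12.86 at 20 min and 13.42, 13.49 and 13.48 at 2 h. For FABP3 the 2 h values lay at or above the highest 20 min value, that of pig 1, and the change was 0.35 ± 0.31 (limma adjusted p = 0.608). CPT1A, the liver form of the carnitine palmitoyltransferase, had -0.17. Of the 16 oxidation enzymes, 14 were higher. HADHA, the alpha subunit of the mitochondrial trifunctional protein, stood at 11.11, 11.04 and 11.03 at 20 min and 11.24, 11.40 and 11.46 at 2 h, with no overlap and a change of 0.31 ± 0.16 (limma adjusted p = 0.579). The acyl-CoA dehydrogenase genes ACADL and ACADS, chosen after their values were seen, each had 0.24 and ACADM had 0.06. Of 10 lipolysis genes and regulators 8 were higher, among them PNPLA2, the main triglyceride lipase (0.33), while the regulator gene PPARGC1A had -0.14.

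The citrate cycle and its feeder enzymes showed the same direction, with 24 of 29 higher, 12 higher and 1 lower in all 3 pigs, 5 higher and 1 lower at unadjusted p under 0.05, and a median of 0.0951. Averaged over the list, the change was 0.00951, 0.0815 and 0.232 in pigs 1, 2 and 3. The median was 0.175 without pig 1 and 0.0406 without pig 3. When only the 20 min array of pig 1 was left out, 13 genes had an unadjusted p under 0.05 in the higher direction, where 7.95% of all genes did so. MDH2, mitochondrial malate dehydrogenase, stood at 12.02, 12.28 and 11.82 at 20 min and 12.18, 12.62 and 12.40 at 2 h, a change of 0.36 ± 0.21 (limma adjusted p = 0.579) with overlapping groups. IDH2, which makes mitochondrial NADPH, stood at 12.95, 12.71 and 12.51 at 20 min and 12.98, 13.02 and 13.00 at 2 h, without overlap, and its change was 0.27 ± 0.23 (limma adjusted p = 0.606). The malic enzyme gene ME3 stood at 7.89, 7.74 and 7.30 at 20 min and 7.94, 8.26 and 8.02 at 2 h, also without overlap (0.43 ± 0.34). Citrate synthase, CS, had 0.04. The lower gene at unadjusted p under 0.05 was PC, pyruvate carboxylase, which refills the cycle (-0.23).

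Nuclear-encoded subunits of oxidative phosphorylation were higher in 54 of 60 cases, by small amounts. In all 3 pigs 19 were higher and 1 lower, 5 had an unadjusted p under 0.05, all higher, and the median was 0.0971. The direction was shared by the complexes: 28 of 33 genes of complex I, 4 of 4 of complex II, 3 of 3 of complex III and cytochrome c, 6 of 7 of complex IV and 13 of 13 of the ATP synthase. The complex II gene SDHB is also in the citrate cycle list, so these lists are not separate. Averaged over the list, the change was -0.019, 0.113 and 0.205 in pigs 1, 2 and 3, so pig 1 did not share it. Without pig 1, 57 of 60 were higher in the mean. In that fit 11 (18.3%) were higher at unadjusted p under 0.05, against 5.48% of all genes. Without the 20 min array of pig 1 alone, 24 (40%) were higher at unadjusted p under 0.05, against 7.95% of all genes. Without pig 3 the median was 0.0442. Among complex I genes, NDUFA13 stood at 11.96, 11.65 and 11.37 at 20 min and 11.98, 12.05 and 12.13 at 2 h, NDUFS7 at 11.40, 11.26 and 10.91 and 11.53, 11.56 and 11.47, and NDUFA10 at 10.12, 10.05 and 9.91 and 10.15, 10.34 and 10.37. None of these groups overlapped, the changes being 0.39 ± 0.37, 0.33 ± 0.22 and 0.26 ± 0.22. For NDUFA13 and NDUFS7 the 2 h values lay close together while the 20 min values fanned out below that of pig 1. For NDUFA10 the SD between pigs was 0.11 at 20 min and 0.12 at 2 h.

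Contractile genes of slow fibres, which rely on oxidative metabolism, were higher in 8 of 10 cases, with 5 at unadjusted p under 0.05, all higher, and a median of 0.177, which was 0.261 without pig 1 and 0.107 without pig 3. The troponin gene TNNI1 stood at 13.94, 13.51 and 13.33 at 20 min and 13.97, 13.86 and 13.92 at 2 h, a change of 0.32 ± 0.28 (limma adjusted p = 0.592). TNNC1, the troponin C of slow fibres, stood at 13.83, 13.41 and 13.38 at 20 min and 13.81, 13.79 and 13.80 at 2 h (0.26 ± 0.24, limma adjusted p = 0.608). In both, pig 1 at 20 min already had the level that all pigs had at 2 h. MYH7, the slow myosin heavy chain, had 0.12, MYL2 had 0.05, and the calsequestrin gene CASQ2 was lower (-0.27). Contractile genes of fast fibres lay near 0, with 2 of 9 higher, 7 lower and changes between -0.05 and 0.03. Their mean levels lay between 13.07 and 14.50, close to the highest level of any gene, 14.69.

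In the means of these oxidative groups the pigs differed at 20 min and stood closer together at 2 h, though not in every part of them. The mean level of the slow-fibre genes was 12.60, 12.28 and 12.27 at 20 min and 12.57, 12.46 and 12.56 at 2 h. The median SD between pigs for these genes was 0.219 at 20 min and 0.0278 at 2 h, where all genes had 0.148 and 0.137. All genes include many dimmer ones, while the slow-fibre genes named above other than CASQ2 had mean levels between 13.14 and 14.49. Fast-fibre genes, which are as bright, had median SDs of 0.024 and 0.0316. The part of the signal level in these SDs was not tested. For oxidative phosphorylation the means were 11.92, 11.79 and 11.72 at 20 min and 11.90, 11.91 and 11.92 at 2 h, and for fatty acid genes 9.89, 9.81 and 9.67 against 9.92, 9.96 and 9.95. The median SD between pigs was 0.131 and 0.0902 for oxidative phosphorylation genes and 0.206 and 0.145 for fatty acid genes. Among the parts, the range of the mean level over pigs was 0.13 at 20 min and 0.15 at 2 h for fatty acid oxidation enzymes and 0.14 and 0.28 for complex III with cytochrome c, so these did not draw together. Pig 1 had the highest level in 46 of the 60 oxidative phosphorylation genes at 20 min and in 13 at 2 h, while over all genes it was highest in 38.0% and 35.2%. The change of each pig contains its own 20 min value, so the low start and the larger change of pigs 2 and 3 are the same observation. At 6 h the slow-fibre means were 12.60, 12.58 and 12.54 and at 24 h 12.49, 12.53 and 12.55, so the pigs also stood close together later.

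**Figure D5:**
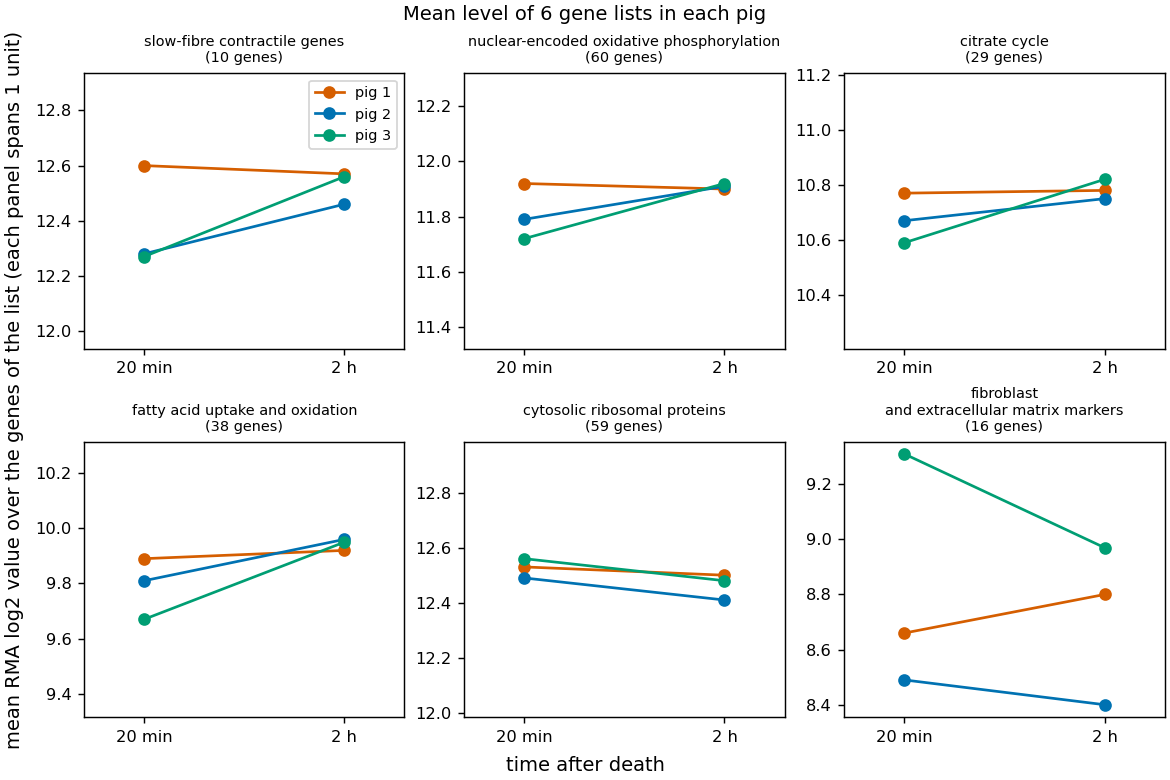
Mean RMA log2 value of 6 gene lists at 20 min and 2 h, 1 line per pig; every panel spans 1 log2 unit around its own centre, so slopes compare but heights do not. The pigs lay apart at 20 min and close together at 2 h for slow-fibre, oxidative phosphorylation, citrate cycle and fatty acid genes, while ribosomal protein genes ran nearly parallel and matrix markers were highest in pig 3 at 20 min.

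Genes of glycolysis and glycogen metabolism, the pathway that makes lactate in the carcass, stood nearly still. Of 24 genes 11 were higher and 13 lower, with a median of -0.0141, a mean of the opposite sign (0.00408) and changes between -0.12 and 0.34. The 1 gene at unadjusted p under 0.05 was GYS1, muscle glycogen synthase, at 9.89, 9.60 and 9.26 at 20 min and 10.03, 9.91 and 9.84 at 2 h. Its groups overlapped, all 3 of its probe sets had the same sign, and the change was 0.34 ± 0.22 (limma adjusted p = 0.579). The glycogen phosphorylase gene PYGM had 0.01, the phosphofructokinase gene PFKM -0.06, the pyruvate kinase gene PKM -0.10 and GAPDH -0.04.

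Cytosolic ribosomal proteins were lower in 54 of 59 cases, 31 of 34 in the large and 23 of 25 in the small subunit. In all 3 pigs 32 were lower and 1 higher. The size was small, with a median of -0.0653, and 2 genes had an unadjusted p under 0.05. RPS18 stood at 13.62, 13.41 and 13.54 at 20 min and 13.43, 13.31 and 13.23 at 2 h, and RPL19 at 12.71, 12.52 and 12.74 at 20 min and 12.57, 12.37 and 12.53 at 2 h. Both groups overlapped, with changes of -0.20 ± 0.10 (limma adjusted p = 0.608) and -0.16 ± 0.04 (limma adjusted p = 0.624). The list mean was -0.0239, -0.0796 and -0.081 in pigs 1, 2 and 3, and without pig 1 again 54 of 59 were lower in the mean. With arrays centred on their brightest 25%, the median was -0.0476.

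Translation factors were lower in 14 of 23 cases, without a gene at unadjusted p under 0.05, and the cap-binding factor gene EIF4E had -0.20. Proteasome subunits, which degrade ubiquitin-tagged proteins, were lower in 28 of 34 cases and in all 3 pigs in 13, with a median of -0.0398. Without pig 1, 22 of 34 were lower. Both proteasome genes at unadjusted p under 0.05 were higher: PSMB3 stood at 7.81, 7.88 and 7.31 at 20 min and 7.57, 8.90 and 8.01 at 2 h, lower in pig 1 and higher in the others (0.49 ± 0.66), and PSMD3 had 0.19 ± 0.20. Enzymes of mRNA decay were lower in 13 of 18 cases, among them the exosome gene EXOSC3 (-0.24 ± 0.20, limma adjusted p = 0.613).

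The proteases linked to tenderness showed little. Of 16 calpain, cathepsin and inhibitor genes, 6 were higher and 10 lower and 0 had an unadjusted limma p under 0.05. Their median of -0.0345 was -0.0807 without pig 1 and 0.0255 without pig 3. The muscle calpain gene CAPN3 had -0.05, CAPN1 0.10, CAPN2 -0.02 and calpastatin, CAST, which inhibits calpains, -0.05. CTSK, a lysosomal protease that cuts collagen, stood at 7.99, 7.78 and 8.78 at 20 min and 8.10, 7.47 and 7.88 at 2 h, a change of -0.37 ± 0.51 that came mainly from pig 3. Atrophy and autophagy genes were higher in 11 of 17 cases, with GABARAP, which builds autophagosomes, at 0.18 ± 0.03 (limma adjusted p = 0.614) and the atrophy ligase gene FBXO32 at -0.02. Myogenic regulators were 10 higher and 7 lower, with a median of 0.0295 and a mean of -0.0653, which differ in sign. Besides MSTN, the fibre factor gene MYF6 stood at 10.21, 11.26 and 11.12 at 20 min and 9.95, 10.87 and 10.83 at 2 h (-0.31 ± 0.07, limma adjusted p = 0.628).

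Calcium handling genes were 6 higher and 6 lower, and 4 had an unadjusted p under 0.05, all higher. CALM3, a calmodulin gene, stood at 9.96, 9.99 and 9.84 at 20 min and 10.13, 10.41 and 10.17 at 2 h, without overlap (0.30 ± 0.13, limma adjusted p = 0.579), but only 2 of its 6 probe sets were higher. The kinase gene CAMK2B stood at 8.53, 8.84 and 8.48 at 20 min and 8.81, 9.01 and 8.74 at 2 h (0.24 ± 0.06, limma adjusted p = 0.587), and ATP2A2, the slow-fibre calcium pump, had 0.21 ± 0.14. The release channel gene RYR1 had 0.07. Of 15 apoptosis and p53 genes, GADD45A, which marks growth arrest and DNA damage, stood at 8.84, 9.34 and 8.98 at 20 min and 8.43, 8.84 and 8.33 at 2 h. It was lower in each pig by a similar amount, and the change was -0.52 ± 0.12 (limma adjusted p = 0.587). Of the whole list 8 were higher and 7 lower, with a median of 0.00257 and a mean of -0.0403.

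Cytokines and inflammatory mediators had no common direction, with 12 of 26 higher, 14 lower and a median of -0.0302. NFKBIA, the inhibitor that ends NF-kappa-B signalling, stood at 9.21, 9.14 and 9.09 at 20 min and 9.07, 8.98 and 8.45 at 2 h, without overlap (-0.31 ± 0.28, limma adjusted p = 0.593). The monocyte attractant CCL2 stood at 6.40, 6.33 and 6.45 at 20 min and 6.24, 6.22 and 5.86 at 2 h, also without overlap (-0.29 ± 0.26), whereas CCL4, another chemokine, was higher, with 6.04, 6.23 and 5.90 at 20 min and 6.24, 6.44 and 6.25 at 2 h (0.25 ± 0.08, limma adjusted p = 0.587). IL6 had 0.04 and TNF 0.11.

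Metallothionein and antioxidant genes were higher in 16 of 25 cases. MT1A stood at 4.67, 4.48 and 4.56 at 20 min and 4.88, 4.91 and 4.88 at 2 h, without overlap (0.32 ± 0.11, limma adjusted p = 0.579). It is the dimmest gene of the list and lay below the array medians. The metallothionein gene MT-2B had -0.17, the lowest of the list, and the mitochondrial peroxiredoxin gene PRDX3 had 0.17 ± 0.04 without overlap. The 7 clock genes ranged from -0.15 (NFIL3) to 0.20 (RORA). Of 16 genes often used as references in quantitative PCR, 4 were higher and 12 lower, between -0.24 (GUSB) and 0.44 (YWHAZ), and ACTB had -0.11.

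Markers of the other cells in muscle differed between the pigs. For fibroblast and matrix genes, 6 of 16 were higher and 10 lower, and averaged over the list the change was 0.145, -0.0879 and -0.339 in pigs 1, 2 and 3. Their mean level was 8.66, 8.49 and 9.31 at 20 min and 8.80, 8.40 and 8.97 at 2 h, highest in pig 3 at both times. In all 3 pigs, 4 of these markers were higher at 2 h and 1 was lower. FBN1, the fibrillin gene, stood at 10.28, 9.94 and 11.11 at 20 min and 10.41, 9.71 and 10.04 at 2 h. Its change of -0.39 ± 0.61 (limma adjusted p = 0.643), the lowest of the list, came mainly from pig 3. DPT had -0.27 ± 0.33, whereas the collagen gene COL6A2 was higher in each pig (0.24 ± 0.17) and the brightest marker, SPARC, had 0.02 ± 0.22. Without pig 1, 12 of 16 were lower and 5 had an unadjusted p under 0.05, against 0 with it, where 5.26% of all genes had such a p in the lower direction. The median was -0.129, -0.275 without pig 1 and 0.0200 without pig 3, so its sign rests on pig 3. Over all probe sets of these genes the median was 0.00411, so the sign also rests on the choice of probe set. In bulk tissue, fewer cells of a type and less RNA per cell cannot be told apart.

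Adipocyte markers were 5 higher and 9 lower (median -0.139), with list means of 0.0443, -0.198 and -0.312 in pigs 1, 2 and 3. ADIPOQ was furthest from 0 (-0.87 ± 0.94, limma adjusted p = 0.606), the lipid droplet coat gene PLIN2 was higher in all 3 pigs (0.30 ± 0.20, limma adjusted p = 0.592), and the brightest marker, FABP4, had -0.02. Without pig 1, 3 adipocyte markers in place of 1 were lower at unadjusted p under 0.05 (21.4%, against 5.26% of all genes), and without pig 3 the median was -0.0592. Macrophage and leukocyte markers were 6 higher and 11 lower, with means of 0.155, 0.0968 and -0.315 and a median of -0.0345 that was 0.0716 without pig 3. Endothelial markers were higher in 10 of 14 cases. The surface marker gene CD34 stood at 7.35, 7.21 and 7.31 at 20 min and 7.43, 7.52 and 7.62 at 2 h without overlap (0.23 ± 0.13, limma adjusted p = 0.61). The groups overlapped for ENG (0.32 ± 0.21) and EGFL7 (0.23 ± 0.18). The brightest endothelial marker, PECAM1, had -0.01 ± 0.14, and the lowest, SELE, had -0.15. Smooth muscle and pericyte markers were 4 higher and 4 lower (median -0.0015, mean 0.0393), with SMTN, smoothelin, at 0.33 ± 0.24. Satellite cell markers were 3 higher and 1 lower, nerve markers 1 higher and 4 lower, and of the 2 blood markers HBB had -0.15 and ALAS2 0.25. The summed linear level ranged over pigs from 16200 to 26400 at 20 min and 15600 to 21300 at 2 h for matrix markers, from 3970 to 6120 and 3850 to 4800 for adipocyte markers, and from 1450 to 2400 and 1700 to 2160 for macrophage and leukocyte markers. No marker was listed at 0, since RMA gives every probe set a positive value here. The matrix and adipocyte lists were lower in the mean in pigs 2 and 3, the same pigs in which the oxidative lists were higher, and their part in those results was not tested.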

How the data were processed

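The table used holds log2 intensities per probe set, which the authors made with RMA (affy), per the submitters' processing notes; no version is given in the sources used here. RMA gives all arrays nearly the same distribution, so a shift of all transcripts alike would not show. Gene names came from the 2016 platform annotation: 10099 probe sets had 1 symbol, 198 several and 13826 none, and 9989 matched a RefSeq gene by ID.

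With limma 3.58.1 in R 4.3.3 (statmod 1.5.0), all 12 arrays were fitted with time and pig as a fixed block (6 residual and 5.67 prior degrees of freedom). The contrast was 2 h minus 20 min, two-sided, with Benjamini-Hochberg adjustment over 23999 probe sets. The script was checked on simulated data. Pig numbers in the titles and the series' design text pair the arrays, and deviations from the time means correlated with r between 0.409 and 0.656 within pigs.

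Named genes were the 12 highest and 12 lowest changes among the 100 smallest p with equal sign in all pigs and, in each of 23 gene lists and 9 marker lists, the 3 members with the smallest p and the brightest one. The comparison and the lists were chosen with earlier results of these data known. Alternatives covered the block, scaling, filters, prior, weights, thresholds, gene representation and each array or pig left out; list counts without pig 1 were added after seeing the data.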

Additional observations from a re-analysis of the deposited data

Results flagged for a closer look

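The control probe set for 18S ribosomal RNA, which the comparisons leave out, was higher at 2 h in all 3 pigs, with every 2 h array above every 20 min array. Its log2 values were 9.77, 9.57 and 9.62 at 20 min and 9.81, 10.77 and 9.84 at 2 h in pigs 1, 2 and 3, a mean change of 0.48 ± 0.62 that came mostly from pig 2 (exact permutation p = 0.25, two-sided, the smallest that 3 pairs allow). A second 18S probe set had a mean change of -0.03, a 28S set had 0.07, the other 28S set -0.39 and the 5S set 0.22. The mean changes of the ribosomal controls thus had no common direction. Within pig 2, the second 18S set, the first 28S set and the 5S set had changes of 0.44, 0.86 and 0.45. The other 28S set had -0.24 in that pig. Pig 2 at 2 h was also the array with the highest EF1A 3′ minus 5′ difference of the 6, at 1.11. It was likewise the highest of the 6 in each actin pair (2.54 and 0.14) and each GAPDH pair (-0.18 and 0.20). The cause was not tested.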

How the results depend on the processing

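The 3 pigs set the main limit: each pig is 1 of 3 pairs, and leaving out a single array changed the count of calls. The number of probe sets past adjusted p 0.05 was 0 under every alternative that kept all arrays and ranged from 0 to 29 with arrays or pigs left out: leaving out pig 1 at 20 min gave 29, and leaving out pig 2 at 2 h gave 1. Without the replicate block for pig, which ignores the pairing, 727 probe sets had an unadjusted p under 0.05 in place of 1908, and the count ranged from 1167 (without pig 3) to 3169 (without the 20 min array of pig 1) with arrays or pigs left out. The count with at least a 1.5-fold change ranged from 51 (without pig 3) to 315 (without pig 1), and at 2-fold it was 5. Of 406 values of the 24 genes at either end under alternatives, 398 kept direction and side of the threshold, 0 reversed and 8 passed it. Of 1915 values of 113 other probe sets named by the rule from the lists, 1881 did so, 32 reversed and 2 passed. Genes named or plotted after their values were seen were not part of this count.

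Some list medians moved by more than the SD between pigs. With arrays or pigs left out the range was -0.296 to -0.117 for immediate early regulators, -0.0622 to -0.0279 for translation factors, -0.012 to 0.0898 for atrophy and autophagy genes, -0.0696 to 0.068 for myogenic regulators, 0.0139 to 0.0873 for antioxidant genes and -0.0613 to 0.039 for clock genes. The myogenic mean over genes was -0.0653. The antioxidant median was 0.0776 with centring on the brightest probe sets, 0.0856 with array weights and 0.0304 with all probe sets, and its mean was 0.0389. Changes near 0 reversed: with centring ACTG1 had 0.01 and FABP4, LDHA and PECAM1 had 0.00, with array weights FABP4 had 0.15 and PECAM1 0.06, and with cyclic loess PECAM1 had 0.01. With arrays or pigs left out the ranges were -0.12 to 0.04 for CAPN3, -0.02 to 0.09 for CRYAB, -0.33 to 0.02 for DCP1A, -0.12 to 0.01 for ELAVL1, -0.28 to 0.20 for FABP4, -0.32 to 0.00 for HBB, -0.05 to 0.01 for LDHA, -0.34 to 0.02 for NFIL3, -0.13 to 0.11 for PECAM1, -0.09 to 0.04 for PER1 and -0.07 to 0.15 for SPARC. The cause was not tested.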
